A study of Mus musculus with 18 samples.

Results

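Wnt4, the gene of a secreted Wnt ligand, was followed across mouse ovaries exposed to an excess of luteinizing hormone (LH). It was chosen because earlier results of these data showed it high in cystic ovaries and in a hybrid luteoma but not in a granulosa cell tumour, so that its levels are given as a description, without a test. The members were all probe sets that the platform annotation assigns to Wnt4, and they came to 2 of the 7561 probe sets that carry 1 gene symbol, or 1 of 6137 genes. Both lie on chip B and none on chip A, and they are named here by the suffixes of their identifiers, _g_at and _at. The _g_at probe set had the higher mean and is given first.

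The series holds RNA of whole ovaries on 18 arrays, which is 1 array of each of 2 chip types for each of 9 conditions. LHCTP transgenic ovaries were cystic at 2 months, in CF-1 mice and in CF-1xC57BL/6 F1 hybrids. At 5 months the transgenic hybrid ovary was a luteoma, and the transgenic CF-1 ovary was a granulosa cell tumour. A further transgenic CF-1 ovary of 5 months, treated with human chorionic gonadotropin (hCG), an agonist of the LH receptor, was labelled a luteoma too. Each strain and age had a wild-type partner, and the tumour and the hCG-treated ovary shared the CF-1 wild type of 5 months. All transgenic animals carried the same transgene, the hCG-treated one included, and no hCG-treated wild type was among the samples. As background, the LHCTP line makes an LH beta subunit extended by the carboxyl-terminal peptide of hCG under a promoter active in the pituitary, so that the ovary meets the hormone through the blood. The labels name neither replicate animals nor pooling, and the tumour's array of chip B is described as 2 months old in 1 label but as 5 months in its title and source, which were followed.

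Wnt ligands are lipid-modified glycoproteins that leave the cell with the help of Wls and bind frizzled receptors with Lrp5 or Lrp6 on neighbouring cells. Binding holds back the complex of Axin, Apc and Gsk3 that marks beta-catenin for breakdown, and beta-catenin then works with Tcf and Lef proteins on target genes. In the mouse, Wnt4 is needed for the ovary to form and acts with Rspo1, Foxl2 and follistatin against the testis pathway of Sox9 and Fgf9. In adult rodents it is expressed in granulosa cells and in corpora lutea, the endocrine bodies that form after ovulation under LH.

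Mouse Wnt4 lies on the forward strand of chromosome 4 at chr4:137277635-137299501 in assembly GRCm38.p6 and codes for protein. The 250 bases before its annotated start, chr4:137277385-137277634, are printed because they are the promoter sequence next to the gene whose level is described. They come from RefSeq, read 5′ to 3′, with every match to the GC box GGGCGG or its reverse complement CCGCCC in capitals.
Wnt4 promoter: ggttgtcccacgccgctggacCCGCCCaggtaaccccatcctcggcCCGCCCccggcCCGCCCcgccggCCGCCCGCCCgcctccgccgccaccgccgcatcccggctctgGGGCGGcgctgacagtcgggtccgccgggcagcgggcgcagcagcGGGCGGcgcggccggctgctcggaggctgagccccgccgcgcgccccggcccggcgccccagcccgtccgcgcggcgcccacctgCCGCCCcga
The window is 85.2% G and C, where the median of 32851 promoter windows of the same length is 52.4%, and it holds 44 CpG dinucleotides, where the median is 6. It has 8 matches to the GC box on both strands, 2 of which overlap each other, and 32.7% of all windows hold at least 1. On either strand there was no match to AGGTCA, the core site of Nr5a1 and related nuclear receptors, to TGACG, the core of a cAMP response element, or to CTTTG, the core of the Tcf and Lef motif. These letters occur in 14.0%, 17.8% and 48.6% of all windows. Neither these shares nor that of the GC box come from windows matched to this one in base content. A match is only a match of letters, and no binding was measured.

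Levels are intensities scaled to a common trimmed mean within each chip type, which left the 9 arrays of a type on 1 scale. On chip B values under a floor of 290.7 units were set to the floor before log2, the detection limit was 2 floors, and 28% to 29.6% of its probe sets reached that limit on an array. On both chips together 6408 probe sets reached it on at least 2 arrays and were tested. With 1 array on a side no test was possible, and a probe set was called when it differed at least 2-fold with the brighter side at the limit. Fold values against an array under the floor are bounds. As a measure of array error, the log2 differences of 179 genes measured on both chips disagreed by a median of 0.22 to 0.39 in 6 pairs, with a 95th percentile of 0.99 to 1.48. In whole ovaries, fewer cells of a type and less RNA per cell cannot be told apart.

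In cystic ovaries of 2 months Wnt4 was high in both strains. The _g_at probe set read 2318 units in the CF-1 cystic ovary, against 408 units in its wild type, a 5.68-fold difference (log2 difference 2.51). In the hybrid it read 1977 units in the cystic ovary, against 602 units in the wild type, 3.29-fold higher (log2 difference 1.72). Both cystic arrays stood far above the detection limit, and both wild types stood near or below it. The _at probe set read 2007 units in the CF-1 cystic ovary and 200.5 units in the wild type, which is at least 6.90-fold. It read 1516 units in the hybrid cystic ovary and 288 units in the wild type, at least 5.22-fold. Both wild types were under the floor on that probe set. Over all tested probe sets, 2.95% were called higher and 2.79% lower in the CF-1 cystic ovary, and 4.35% higher and 4.43% lower in the hybrid one. In CF-1, 11 of the 6408 tested probe sets had a larger increase than Wnt4 on _g_at and 8 on _at, and in the hybrid 56 and 17 did.

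**Figure D1:**
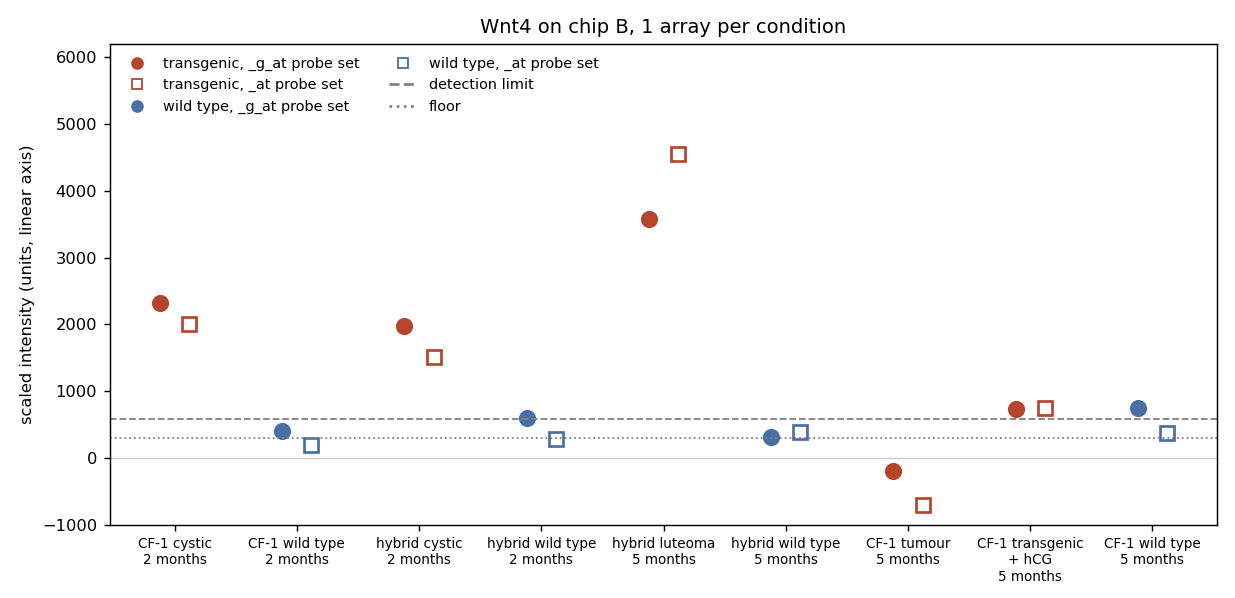
Scaled intensity of Wnt4 on chip B in each of the 9 conditions, 1 array each, for the _g_at probe set (filled circles) and the _at probe set (open squares), transgenic in red and wild type in blue, with no error bars since no condition had a second array. The luteoma is highest at 3574 and 4550.3 units, both cystic ovaries lie between 1516 and 2318 units, and the tumour lies below 0 on both probe sets.

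The hybrid luteoma had the highest Wnt4 of the 9 arrays on both probe sets. On _g_at it read 3574 units in the luteoma, against 311 units in the hybrid wild type of 5 months, an 11.5-fold difference (log2 difference 3.52). On _at the luteoma read 4550.3 units and the wild type 388 units, 11.7-fold higher (log2 difference 3.55). Here both probe sets gave nearly the same size, and 7 and 6 probe sets of 6408 had a larger increase. In this pair 6.57% of all tested probe sets were called higher and 8.27% lower. Compared with the hybrid cystic ovary of 2 months, the luteoma was 1.81-fold higher on _g_at and 3.001-fold higher on _at. In that pair 509 and 103 probe sets of 6408 had a larger increase. These 2 ovaries differ in pathology as well as in age, which cannot be told apart here. The chip B control probe set described next read 156 units in the cystic ovary and 719 units in the luteoma, and its part was not tested.

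The control probe set AFFX-BioDn-5_st, which carries no mouse gene, read 719 units on chip B in the luteoma, 533 units in the tumour and 531 units in the 5-month wild type of CF-1, and at most 330.0 units on the other 6 arrays. The luteoma and its hybrid wild type thus differed in that profile, and the part of this in their difference was not tested. Against the CF-1 wild type of 5 months, which has the same profile, Wnt4 in the luteoma was 4.80-fold higher on _g_at and 12.2-fold higher on _at.

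Wnt4 was not detected in the granulosa cell tumour, which had the lowest value of the 9 arrays on both probe sets. The _g_at probe set read -193 units in the tumour, against 745 units in the CF-1 wild type of 5 months, at least 2.56-fold lower (log2 difference -1.36). With the floor doubled this difference was -0.36 and was no longer called, and with the floor halved it was -2.36. The _at probe set read -703 units in the tumour and 373 units in the wild type, where the wild type itself was under the detection limit and no call was possible (log2 difference -0.36). Values below 0, as a background subtraction leaves them, have no size of their own. In the tumour pair 5.04% of the tested probe sets were called higher and 7.1% lower. Against the CF-1 cystic ovary of the same strain and transgene, Wnt4 in the tumour was at least 7.97-fold lower on _g_at and at least 6.90-fold lower on _at. These 2 ovaries differ in age as well as in pathology. Their chip B control probe set read 533 units in the tumour and 193 units in the cystic ovary, and its part was not tested.

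Set side by side at 5 months, the luteoma exceeded the tumour at least 12.3-fold on _g_at and at least 15.7-fold on _at. In that pair 7.58% of the tested probe sets were called higher in the luteoma and 6.43% lower, and 17 and 14 had a larger increase than Wnt4. The 2 ovaries differ in strain as well as in pathology, which cannot be told apart here. Both arrays had the same control probe set profile.

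The hCG-treated transgenic ovary did not have the Wnt4 level of the hybrid luteoma, although both are labelled luteoma. It read 726 units on _g_at and 752 units on _at, above the detection limit on both. That was 4.92-fold lower than the hybrid luteoma on _g_at and 6.05-fold lower on _at. These 2 ovaries differ in strain as well as in treatment, and their chip B arrays differ in the control probe set, with 72.0 units in the hCG-treated ovary and 719 units in the luteoma, whose part was not tested. Its level was also 3.19-fold and 2.67-fold lower than in the CF-1 cystic ovary, where the control probe set read 193 units. Against the CF-1 wild type of 5 months the probe sets disagreed. On _g_at the hCG-treated ovary had 726 units and the wild type 745 units (log2 difference -0.04), while on _at they had 752 and 373 units (log2 difference 1.01), just past the 2-fold rule and no longer called with the floor doubled. The control probe set differed in this pair too, with 531 units in the wild type. In that pair 7.38% of all tested probe sets were called higher and 6.98% lower, and 235 pairs of _at and _g_at probe sets of the same name disagreed by a 95th percentile of 1.78 on the log2 scale. Compared with the tumour, which carries the same transgene in the same strain at the same age, the hCG-treated ovary was at least 2.50-fold higher on _g_at and at least 2.59-fold higher on _at, where 13.2% of the tested probe sets were called higher and 11.6% lower. Here the control probe set differed as well, with 533 units in the tumour, and its part was not tested. The tumour and the hCG-treated ovary were each set against the same wild-type array.

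Wild-type ovaries had low Wnt4 at both ages. On _g_at their 4 levels were between 311 and 745 units, with 2 of 4 at the detection limit, and on _at between 200.5 and 388 units, with 0 of 4 at it. Their SD on the floored log2 scale was 0.56 on _g_at and 0.23 on _at (n = 4). On _g_at the hybrid wild type was 2.40-fold lower than the CF-1 wild type at 5 months, which passed the 2-fold rule, and on _at they had 388 and 373 units. That pair of wild types differed widely, with 14.2% of all tested probe sets called in either direction. At 2 months, where 4.53% were called, the hybrid wild type had 602 units and the CF-1 wild type 408 units on _g_at, and no call was made. Wild types of 5 months against 2 months were not called for Wnt4 either, with log2 differences on _g_at of 0.87 in CF-1, where 12.5% of all were called, and of -0.95 in the hybrid, where 5.79% were.

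From high to low, the order on _g_at was hybrid luteoma, CF-1 cystic, hybrid cystic, CF-1 wild type of 5 months, hCG-treated, hybrid wild type of 2 months, CF-1 wild type of 2 months, hybrid wild type of 5 months and tumour. The _at probe set kept the same top 3 and the same lowest array, while the 5 between changed places. Of the 8 steps between neighbours on _g_at, 2 were larger than the SD of the wild types, the step of 0.62 on the log2 scale from the luteoma to the CF-1 cystic ovary and that of 1.41 from the hybrid cystic ovary to the 5-month wild type of CF-1. On _at 5 of the 8 steps were, in a spread narrowed by the floor, and the 3 that were not lay among wild types and the tumour. Over the 9 conditions the probe sets correlated at r = 0.94, a value that describes 9 arrays read by both probe sets.

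**Figure D2:**
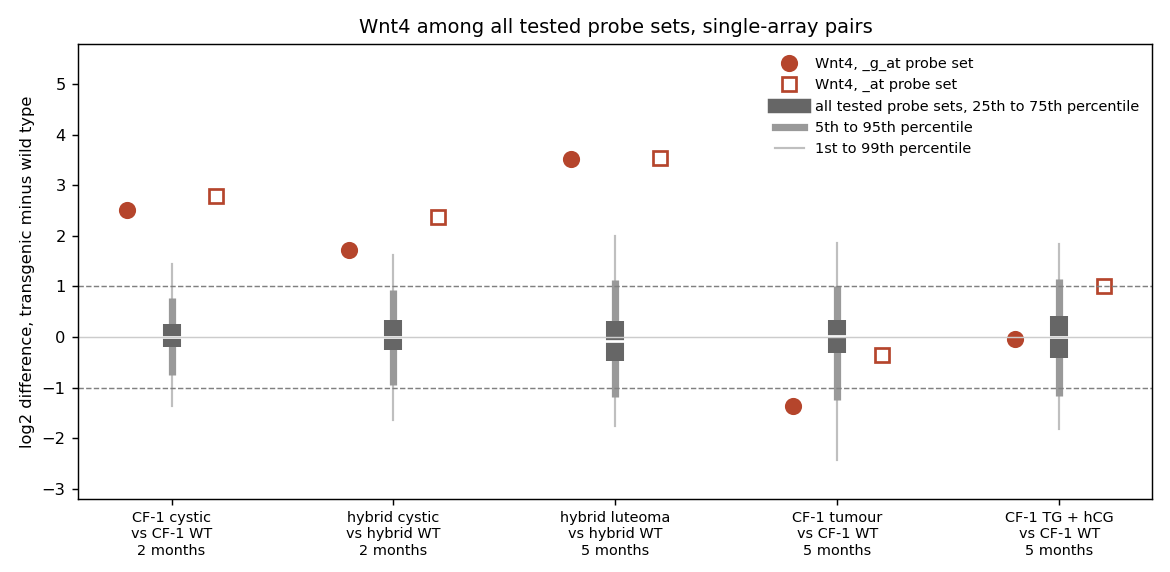
Log2 difference of Wnt4 (red, circle for _g_at and square for _at) in the 5 pairs of a transgenic and a wild-type array, beside the spread of all 6408 tested probe sets (grey bars from the 25th to the 75th, the 5th to the 95th and the 1st to the 99th percentile, white line at the median), with the 2-fold rule dashed. Wnt4 lies above the 99th percentile in both cystic ovaries and in the luteoma, and in the tumour and the hCG-treated ovary within the range from the 1st to the 99th percentile.

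The pattern that Wnt4 was chosen on is counted here only to show which other genes had it. Being called higher in both cystic ovaries and in the luteoma, and not higher in the tumour, held for 21 of the 6408 tested probe sets, or 0.328%, among them both of Wnt4, and for 71 at a fold of 1.5. The other 19 were 12 named genes and 7 probe sets without a name here. Of these 19, 8 also had their highest level in the luteoma and their lowest in the tumour, as Wnt4 did, and 6 were under the floor in the tumour. Rln1, the pregnancy hormone relaxin, read 16825 units in the luteoma and 82.8 units in its wild type, and 21.8 units in the tumour. Serpina6, the corticosteroid-binding globulin, read 7759 units in the luteoma, 31.4 units in its wild type and -3.76 units in the tumour. Gsta3, a glutathione transferase, was called higher in the hCG-treated ovary, with 5043 units there against 2052 units in the CF-1 wild type of 5 months, where Wnt4 was called on _at but not on _g_at. Vcam1, an adhesion molecule of vessel walls, shared the increases but not the low end. It read 3719 units in the tumour against 3685 units in the CF-1 wild type of 5 months, both above the luteoma at 2361 units. AU021092, Adm, Nab2, Sod3, Supt6 and Tnfrsf9 completed the list with Ecm1 and Ptgds, which are described with the genes most like Wnt4.

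Among the other Wnt ligands no such pattern was seen. Of 19 listed ligands, 13 were on the arrays and 5 were tested, namely Wnt1, Wnt3, Wnt4, Wnt10a and Wnt10b, all but Wnt4 on chip A with its floor of 183.8 units. The other 8 did not pass the filter, and the highest of their levels was 359 units, for Wnt7a. None of the 4 was called higher in a cystic ovary or in the luteoma. Wnt3 read 498 and 577 units in the CF-1 and the hybrid cystic ovary, against 308 and 396 units in their wild types, both short of 2-fold. Wnt10a was called lower in the luteoma, with 227 units against 473 units in the wild type. Wnt10b was called higher in the hCG-treated ovary, with 826 units against 363 units in the CF-1 wild type. Wnt1, a ligand best known from the developing midbrain, read 469 units in the tumour and 540.2 units in the hCG-treated ovary. It read -302 units in the CF-1 wild type they share, and was called higher in both. That shared wild type was under the floor, so that the log2 differences of 1.35 and 1.56 are bounds. On no other array did Wnt1 reach the chip A detection limit of 367.6 units, so it passed the filter only through these 2 ovaries. Its calls are therefore not read as a result, and the CF-1 wild type of 2 months had 355 units. Levels of these ligands cannot be ranked against Wnt4, since probe sets differ in brightness.

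Of 16 listed receptors, 8 were on the arrays and 5 were tested. Fzd7, a frizzled receptor, had 561 units in the CF-1 and 250.4 units in the hybrid cystic ovary, against 517 and 542 units in their wild types, and was called lower in the hybrid. It was called higher in the tumour and the hCG-treated ovary, at 501 and 591 units against 107 units in the shared wild type. Fzd8 read 1132 units in the luteoma and 389 units in its wild type, and was called higher on its tested probe set. It stood at 1020 units in the tumour, 330.1 units in the hCG-treated ovary and 1192 units in the 5-month CF-1 wild type, and at most 404 units elsewhere. The 3 arrays high in Fzd8 are the 3 that are high in the control probe set, whose part in it was not tested. Fzd9 on chip A read 559 units in the luteoma against 309 units in its wild type, and was lower in the tumour and the hCG-treated ovary, at 409 and 358 units, than in the CF-1 wild type at 906 units. The control probe set was high on the same 3 conditions of chip A, with 812 units in the luteoma, 782 units in the tumour and 768 units in the CF-1 wild type. Lrp6, the co-receptor, ranged from 1274 to 2024 units over the 9 arrays and was called in no pair. Ryk, an atypical receptor, was called higher in the hCG-treated ovary, with 2327 units against 628 units.

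Among secretion factors and extracellular modulators, 9 of 30 were on the arrays and 6 were tested. Sdc1, the heparan sulfate proteoglycan syndecan, was the member nearest to Wnt4 at 5 months. It read 3191 units in the luteoma and 423 units in its wild type (log2 difference 2.91), and 163 units in the tumour, against 921 units in the CF-1 wild type (log2 difference -1.66). A second probe set of Sdc1 gave 739 units in the luteoma and 296 units in its wild type, and -159 units in the tumour against 506 units in its wild type, a difference that was not called. In cystic ovaries Sdc1 read 2449 units in CF-1 and 1729 units in the hybrid, against 1621 and 947 units in their wild types, and was not called on that probe set, while the second one was called in the hybrid. Frzb, a secreted antagonist, was called higher in the CF-1 cystic ovary, with 473 units against 201 units, and in the hCG-treated ovary, with 574 units against 172 units. Apart from these ovaries, only the hybrid cystic one reached the detection limit, at 421 units. Frzb thus passed the filter only through transgenic ovaries, and its calls are not read as a result. Wls, the carrier of Wnt ligands out of the cell, was called lower in the tumour, at 498 units against 1058 units. The antagonist Sfrp1 was called lower there, at 603 units against 1235 units, and the antagonist Sfrp2 higher, at 477 units against 136 units. Vcan, the matrix proteoglycan versican, was called higher in the tumour, at 3356 units against 592 units, and lower in the hybrid cystic ovary, at 1413 units against 3931 units.

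**Figure D3:**
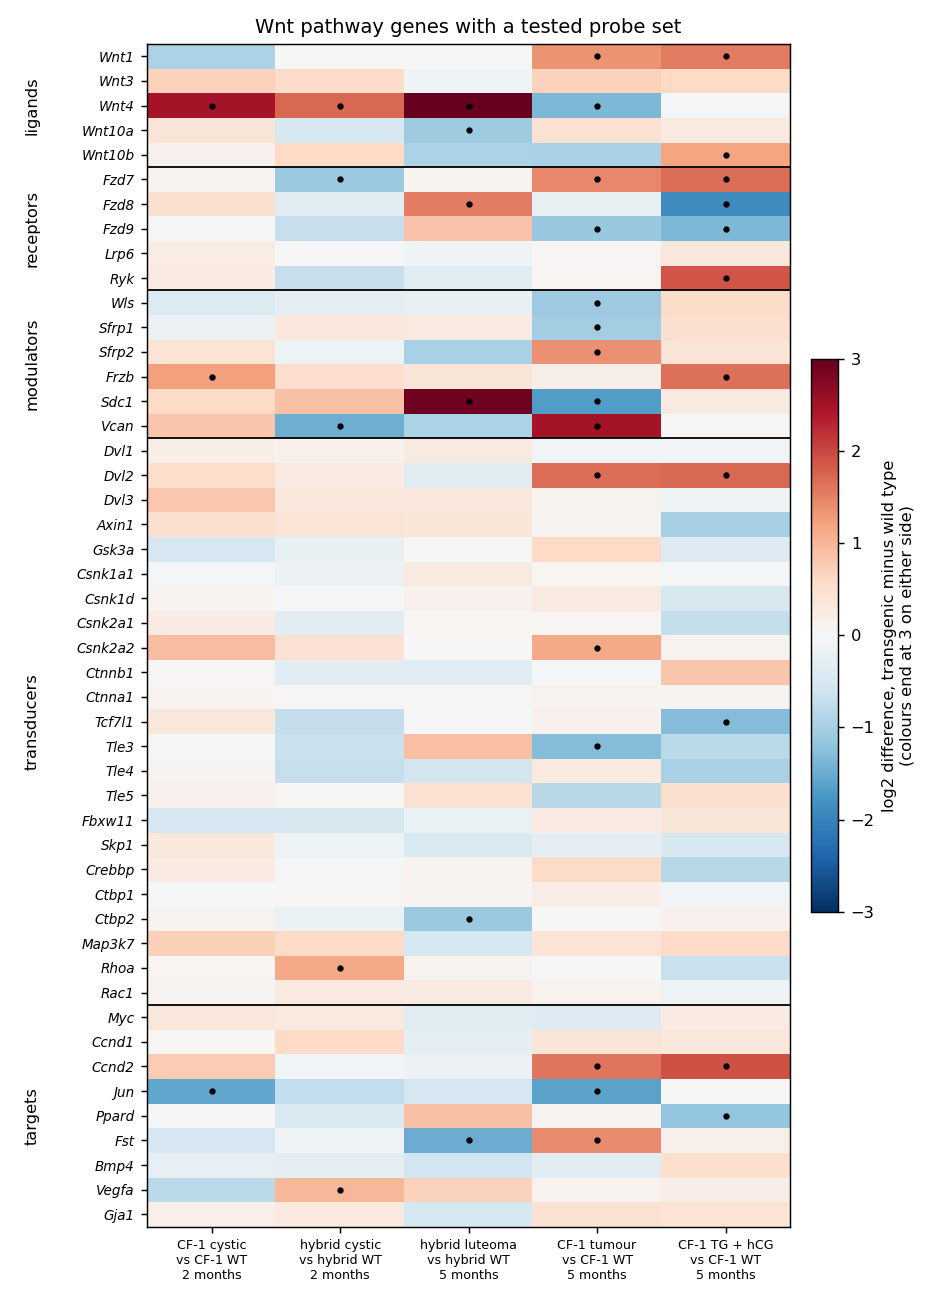
Log2 difference, transgenic minus wild type, of the 48 genes of the Wnt lists with a tested probe set (rows, in 5 blocks by role) in 5 pairs of single arrays (columns), red for higher and blue for lower, with a dot where the 2-fold rule was met. The row of Wnt4 (_g_at) is dark red in the first 3 columns, and Sdc1 is the other gene with a dark red luteoma and a blue tumour.

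Over ligands, receptors, modulators and intracellular transducers without Wnt4, 111 genes were listed, 57 were on the arrays and 38 were tested. In the CF-1 cystic ovary 1 of the 38 was called higher and 0 lower (2.63% and 0%, beside 2.95% and 2.79% of all tested probe sets). In the hybrid cystic ovary 1 was higher and 2 lower (2.63% and 5.26%, beside 4.35% and 4.43%), and in the luteoma 2 and 2 (5.26% each, beside 6.57% and 8.27%). The shares in these 3 pairs were near or below those of all probe sets. In the tumour 6 were higher and 5 lower (15.8% and 13.2%, beside 5.04% and 7.1%), and in the hCG-treated ovary 6 and 3 (15.8% and 7.89%, beside 7.38% and 6.98%), both against the same wild type. Wnt1 is among those higher in both, and Frzb among those higher in the hCG-treated ovary. Frzb is also the gene called in the CF-1 cystic ovary. Wnt1 and Frzb passed the filter only through transgenic ovaries where they were high, so the shares called higher are not read as a result. The median log2 differences in these 5 pairs were 0.17, -0.04, 0.02, 0.11 and 0.09, beside 0.01, 0.01, -0.07, 0.01 and 0.00 over all tested probe sets. In an additive limma fit of genotype, strain and age over the 8 untreated arrays of each chip, the contrast with more than 1 array on a side, none of the 38 passed an adjusted p of 0.05, and neither did any of the 6408 probe sets (0%), of which 642 had an unadjusted p under 0.05 and 8 passed with trended and robust variances. At an unadjusted p under 0.05, limma gave 3 of the 38, Csnk2a2, Dvl3 and Frzb, all higher in transgenic ovaries, which is 7.89% beside 10.02% of all tested probe sets. Of these, Frzb passed the filter only through transgenic ovaries. The lowest adjusted p in the list was 0.470, and 0 of the 38 were among those 8. With the 4 pairs of equal strain and age as a block, an alternative added later, limma gave 0 of the 38 and 0 of all as well. These p-values measure the spread between single samples of different conditions.

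Of 23 tested intracellular transducers, 0 were called higher or lower in the CF-1 cystic ovary, 1 and 0 in the hybrid one, 0 and 1 in the luteoma, 2 and 1 in the tumour and 1 and 1 in the hCG-treated ovary. A single gene is 4.35% of this list, and the shares of all probe sets in these pairs are those given above. Ctnnb1, which codes for beta-catenin, read 3400.1 and 2305 units in the CF-1 and the hybrid cystic ovary, against 3292 and 2906 units in their wild types. It read 2185 units in the luteoma and 2767 units in its wild type. In the tumour and the hCG-treated ovary it read 1816 and 3351 units, against 1876 units in their shared wild type, and it was called in no pair. Dvl2, an adaptor below frizzled receptors, was called higher in the tumour and the hCG-treated ovary, at 919 and 949 units against 287 units. Hybrid wild types of 2 and 5 months read 932 and 829 units for Dvl2, called higher than the CF-1 wild types at both ages. Of 22 listed target genes, 13 were on the arrays and 9 were tested. In the CF-1 cystic ovary 0 were called higher and 1 lower, in the hybrid cystic ovary 1 and 0, in the luteoma 0 and 1, in the tumour 2 and 1 and in the hCG-treated ovary 1 and 1, where a single gene is 11.1% of the list. Jun, an immediate early gene, was called lower in the CF-1 cystic ovary, with 499 units against 1465 units, and in the tumour, with 718 units against 2182 units. Ccnd2, a cyclin, was called higher in the tumour and the hCG-treated ovary, with 1030.4 and 1256 units against 337 units. Its hybrid wild types read 1525 units at 2 months and 1882 units at 5 months, called higher than the CF-1 wild types at both ages.

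Genes that act with or against Wnt4 in the gonad differed among themselves in direction. Of 17 listed, 13 were on the arrays and 9 were tested, and Rspo1 and Foxl2 had no probe set named here. Fst, which codes for follistatin and is a target of Wnt4 in the fetal mouse ovary, was called lower in the luteoma, where Wnt4 was highest, with 797 units against 2234 units in its wild type. That hybrid wild type was itself called higher for Fst than the CF-1 wild type of 5 months, which had 1045 units. In the tumour, where Wnt4 was under the floor, Fst had 2804 units. In cystic ovaries Fst read 890 and 1119 units, against 1252 and 1198 units in their wild types, and was not called. Amh, which codes for anti-Müllerian hormone, was called higher in both cystic ovaries, with 2916 and 3913 units against 1398 and 1444 units in their wild types. It was called lower in the luteoma, the tumour and the hCG-treated ovary. In the luteoma it read 837 units, against 1704 units in its wild type. Gata4, a transcription factor of gonadal somatic cells, was called higher in the tumour, at 1494 units against 679 units, and lower in the hCG-treated ovary, at 282 units, and in the hybrid cystic ovary, at 271 units against 614 units. Dhh, which codes for desert hedgehog, read 2073 units in the tumour on its tested probe set and -272 units in the CF-1 wild type, and was called higher there. It was called lower in the luteoma, at -506 units against 617 units.

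Over the 9 conditions, 2350 genes that varied at least 2-fold were set against Wnt4 on _g_at by Pearson's r of floored log2 values. The 9 points are single arrays that share their scaling, so that r is a description. The 8 most alike were Ecm1 (r = 0.97), Dusp16 (0.95), Lss (0.93), Ptgds (0.92), Rln1 (0.92), Id2 (0.92), Htr4 (0.91) and Cd47 (0.91), and 4 of them lie on chip A, where Wnt4 was not measured. In all, 11 genes reached an r of 0.9. Ranked by likeness to the _at probe set, 3 of the 8 stayed among its top 8.

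Ecm1, an extracellular matrix protein, read 16376 and 18508 units in the CF-1 and the hybrid cystic ovary, against 2784 and 3430.0 units in their wild types. It read 21173 units in the luteoma and 2683 units in the hybrid wild type of 5 months. In the tumour and the hCG-treated ovary it read 1917 and 7921 units, against 5204 units in the CF-1 wild type. Its order over the 9 arrays was that of Wnt4 on _g_at, except that the cystic ovaries changed places, as did the hCG-treated ovary and its wild type. Ptgds, a synthase of prostaglandin D that acts on the testis side in the fetal mouse gonad, read 1317 and 4392 units in the cystic ovaries, against 61.3 and 669 units in their wild types. It read 14122 units in the luteoma and 76.8 units in its wild type, and -199 units in the tumour. It was called higher in the hCG-treated ovary too, with 1653 units against 773 units in the CF-1 wild type. Lss, the lanosterol synthase of cholesterol synthesis, varied less, with 3653 units in the luteoma against 1826 units in its wild type and 1360 units in the tumour against 2462 units. Id2, an inhibitor of DNA-binding helix-loop-helix proteins, read 7457 units in the luteoma, 3859 units in its wild type and 2602 units in the tumour.

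The 4 genes most opposite to Wnt4 were Inhbb (r = -0.91), Inhba (-0.89), Rb1 (-0.89) and Pdzk1ip1 (-0.86). Inhbb and Inhba code for the subunits of activins and, with the alpha subunit, of inhibins. Inhbb read 1190.2 and 1331 units in the CF-1 and the hybrid cystic ovary, against 4839 and 5454 units in their wild types. It read 711 units in the luteoma and 5987 units in its wild type, and was highest in the tumour. In the hCG-treated ovary it was low, at 1331 units against 4135 units in the CF-1 wild type, while Wnt4 on _g_at was level there. Inhba read 1562 units in the luteoma against 5891 units in its wild type, and 2909 units in the hCG-treated ovary against 3080.1 units in the CF-1 wild type. Rb1, a repressor of the cell cycle, ranged from 303 units in the luteoma to 691 units in the tumour. Without the tumour array the r of the 8 alike genes was between 0.90 and 0.97 and that of the 4 opposite genes between -0.83 and -0.96.

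**Figure D4:**
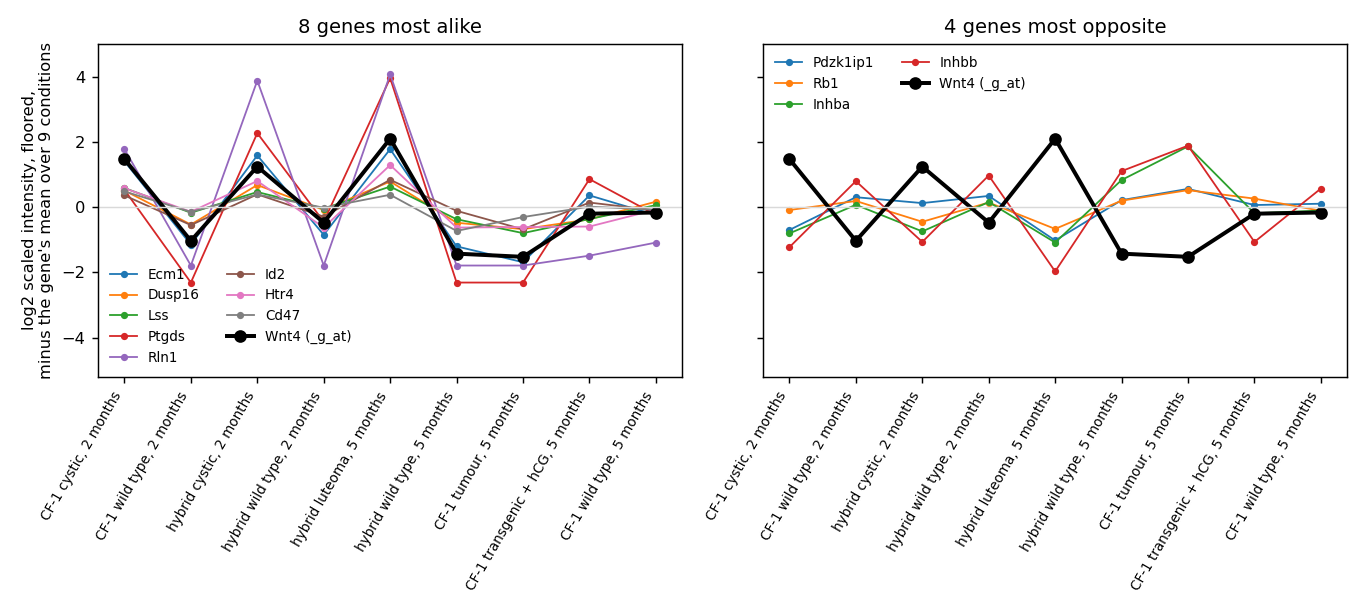
Floored log2 intensity over the 9 conditions, centred on the mean of each gene, of Wnt4 on _g_at (black) with the 8 genes most alike (left) and the 4 most opposite (right), 1 array per condition. Rln1 and Ptgds have larger swings than Wnt4, and in the tumour Inhba and Inhbb stand at their highest values where Wnt4 stands at its lowest.

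Markers of cell types that a whole ovary sample can hold were summed over their tested genes. The oviduct derives from the Müllerian duct, which needs Wnt4 to form in the mouse. Its epithelium was represented by 6 of 6 listed genes, whose sum ran from 1446 to 15292 units in the 4 untreated transgenic ovaries and from 18658 to 28741 units in the 4 wild types, and was 23022 units in the hCG-treated ovary. The sum was thus lower in all 4 untreated transgenic ovaries than in every wild type. It was lowest in the tumour, where Wnt4 was under the floor, and next lowest in the luteoma, at 10025 units, where Wnt4 was highest. Ovgp1, the oviduct glycoprotein, read 10829 and 9714 units in the CF-1 and the hybrid cystic ovary, 5823 units in the luteoma and 109 units in the tumour, against 9338 to 19169 units in wild types. Pax8, a transcription factor of Müllerian epithelium, was under the floor in both cystic ovaries and the luteoma, at 231 to 252 units, and read 521 to 733 units in wild types. In the tumour it read 318 units, above the floor. Pax8 reached the detection limit only in wild types and passed the filter only through them, so its low levels are not read as a result. Granulosa markers, 7 of 10 listed, summed to 30769 to 73004 units in the untreated transgenic ovaries and 40534 to 43789 units in wild types, with the highest sum in the tumour and the lowest in the luteoma. Luteal markers, 5 of 8 listed, summed to 85997 and 84130.1 units in the CF-1 and the hybrid cystic ovary, against 91272 and 72580 units in their wild types. They summed to 66644 units in the luteoma, against 45815 units in its wild type. In the tumour and the hCG-treated ovary they summed to 24256 and 123057 units, against 100186 units in the shared wild type. The luteal sum was highest in the hCG-treated ovary and rested much on Hsd3b1, at 39328.5 units there and 1664 units in the luteoma. Hsd3b1 differed between their wild types of 5 months too, at 22977 units in CF-1 and 3612 units in the hybrid. Star, Ptgfr and Cyp11a1 were also higher in the hCG-treated ovary than in the luteoma. Scarb1 was lower, at 13474 units against 18191 units. Of 5 theca and interstitial markers 1 was tested, Cyp17a1. Like Wnt4, it was highest in the luteoma, at 9578 units against 4373 units in its wild type, and lowest in the tumour, at 1727 units against 3968 units. In the cystic ovaries it read 5915 and 6703 units, against 5773 and 6784 units in their wild types, and 8023 units in the hCG-treated ovary. Of 4 adrenal cortex markers 0 were tested. Sums for oocytes, smooth muscle, fat cells, macrophages and red cells are not described here. The part of these cell types in the levels of Wnt4 was not tested.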

How the data were processed

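RNA of 9 ovary conditions had been hybridised to chip A and chip B, 1 array each. The authors deposited linear intensities, some of them below 0, and the software and scaling behind each intensity are not given in the sources used here. Arrays of a chip type were brought to the same trimmed mean (2nd to 98th percentile), floored at 183.8 units on chip A and 290.7 units on chip B, and taken to log2. The tested probe sets, those at or above 2 floors on at least 2 arrays, were 4122 on chip A and 2286 on the other type. The trimmed means before scaling differed by up to 1.94-fold within a chip type, and the number of arrays limits the precision. Names come from the platform annotation, updated for 7544 of 7561 entries through GRCm38.p6 gene models. A gene with several probe sets was represented by the brightest.

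Genotype, strain and age were fitted with limma 3.58.1 in R 4.3.3 (lmFit, eBayes, 8 untreated arrays per chip, 4 residual degrees of freedom), with Benjamini-Hochberg adjustment over both chips, and the fit was tested on simulated data. Named genes were Wnt4, the tested ligands, receptors and modulators, listed genes past 2-fold in at least 2 of 5 pairs, the 8 genes most like and the 4 most unlike Wnt4, and Fst and Ctnnb1 (Lhcgr and Foxl2 were not measured under these names). Genes with the pattern of Wnt4, Wnt7a, and the single genes behind small counts were named after their values were seen. The members, lists and tests were chosen with earlier results of these data known. Quantile normalization, scaling to the median of detected probe sets, other floors and fold rules, other variances and left-out arrays were tried as alternatives.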

Additional observations from a re-analysis of the deposited data

Results flagged for a closer look

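The direction of the difference between transgenic and wild type was opposite, by at least 2-fold on each side, between strains at 5 months or between ages within a strain for Wnt4 and 9 other genes named here. These contrasts set single arrays against each other and the differences between them were not tested. At 5 months, the log2 difference in the hybrid luteoma minus that in the CF-1 tumour was 4.88 for Wnt4 on _g_at (3.52 against -1.36). It was 4.42 for Ecm1, 8.34 for Ptgds, 4.58 for Sdc1 and 4.77 for Gsta3, which were also higher in the luteoma pair and lower in the tumour pair. It was -2.91 for Fst, -3.88 for Inhba, -4.39 for Inhbb and -5.24 for Dhh, which ran the other way. Within CF-1, the log2 difference of the cystic ovary minus that of the tumour was 3.86 for Wnt4 on _g_at (2.51 against -1.36), 3.997 for Ecm1, 4.91 for Ptgds, 3.02 for Gsta3, 2.54 for Amh and -3.34 for Inhbb. Within the hybrid, the luteoma minus the cystic ovary was -2.47 for Amh (-1.03 against 1.44). All of these except the last use the same tumour and the same CF-1 wild type of 5 months, each on the array of the gene's chip type.

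In groups of 4 arrays, 10 single arrays stood apart from the other 3 by Dixon's ratio of the gap to the range, out of 100 groups examined. The rate of about 1 in 20 that chance gives cannot be applied, since many of these genes were chosen for following or opposing Wnt4 and the groups join strains and ages. Among untreated transgenic arrays the tumour stood apart at Inhba (ratio 0.960, 12028 units), Inhbb (0.935, 10279 units), Fst (0.840, 2804 units) and Cd47 (0.837, 1809 units, the lowest). Among wild types the CF-1 array of 5 months stood apart at Fzd9 (0.962, 906 units), Vcam1 (0.987, 3685 units), Supt6 (0.877, 1015 units) and Gsta3 (0.856, 2052 units), and it is the wild type with the high control probe set. The CF-1 array of 2 months stood apart at Lrp6 (0.870, 1274 units) and Dvl3 (0.855, 301 units), both times as the lowest.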

How the results depend on the processing

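Under quantile normalization and under scaling to the median of detected probe sets, the log2 differences of Wnt4 in 6 pairs moved by less than the SD of the 4 wild types on both probe sets, and no called difference changed direction under any alternative. Most moves came with the floor, which sets the bound where an array lies under it. With the floor halved, _at read 3.32 in the CF-1 cystic pair, -1.36 in the tumour pair and 4.97 for luteoma minus tumour, and _g_at read -2.36 and 4.62 in the last 2. With the floor doubled, _at read 1.79 in the CF-1 cystic, 1.38 in the hybrid cystic, 2.97 in the luteoma, 0 in the tumour and 0.37 in the hCG pair, and 2.97 for luteoma minus tumour. With the floor doubled, _g_at read 2.62 in the luteoma pair, -0.36 in the tumour pair and 2.62 for luteoma minus tumour. The tumour pair and the hCG pair thus have no call of Wnt4 that holds under every floor. Set against the CF-1 wild type of 5 months, an alternative chosen after seeing the data, the luteoma difference on _g_at was 2.26 instead of 3.52.

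The number of probe sets past 2-fold depended on the floor and the fold. In the order CF-1 cystic, hybrid cystic, luteoma, tumour, hCG-treated and luteoma against tumour it was 368, 563, 951, 778, 920 and 898. At 1.5-fold it was 997, 1409, 2139, 1734, 2204 and 1954, and at 3-fold 79, 143, 246, 283, 233 and 351. With the floor doubled it was 167, 257, 528, 495, 485 and 589. With the floor halved it was 738, 1086, 1546 and 1597 in the CF-1 cystic, hybrid cystic, luteoma and hCG pairs, and within 1.5 times in the other 2. The pattern of Wnt4 was met by 17 to 30 probe sets under other scalings and floors and by 71 at 1.5-fold, with both Wnt4 probe sets among them each time.

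Limma's adjusted genotype calls were 0 under quantile normalization, both other floors and no filter, 8 with trended and robust variances, and 0 to 7 with 1 condition left out (7 without the tumour, 2 and 1 without the 2-month and the 5-month wild type of CF-1). Of the 12 genes most and least like Wnt4, 6 kept their place by Spearman's rho and 5 to 10 with 1 condition left out. It was 5 without the tumour, 6 without the CF-1 cystic ovary, and 7 without the luteoma or without the 2-month wild type of CF-1. All 12 kept the sign of their correlation in each of these settings. The replicate numbers in the design name chip types and pair no arrays. With the 4 matched pairs of strain and age as the replicate block, an alternative chosen after seeing the data that left 3 residual degrees of freedom, limma made 0 adjusted calls over all probe sets and gave 623 at an unadjusted p under 0.05, and it changed no call of the pathway list. Low levels near the floor carry little information, which limits every wild-type level of Wnt4.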

Other observations

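The 7 probe sets without a gene name that shared the pattern of Wnt4 covered a wide range of levels. They read 908 to 19579.6 units in the luteoma, 19.5 to 3734 units in the tumour and 253 to 10740.3 units in the hCG-treated ovary, against 227 to 5905 units in the hybrid and 162 to 5936 units in the CF-1 wild type of 5 months. The gene names behind them are not given here.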
